A study of Mus musculus with 8 samples.

Results

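The genes described here are the mouse matrix metalloproteinases (Mmp), the Adamts proteinases and the tissue inhibitors of metalloproteinases (Timp), without Mmp8. Array probes were matched by accession to protein-coding gene symbols that begin with Mmp, Adamts or Timp and a digit, and each gene was read from its brightest tested probe. This gave 44 genes among the 21154 genes named on the array, made up of 21 Mmp, 19 Adamts and 4 Timp genes measured by 58 probes. A further member in the annotation, Mmp27, had no probe matched in this way. The samples were whole skin of female FVB/N mice that were wild type (CD109+/+) or deficient in CD109 (CD109-/-, backcrossed onto FVB/N), taken 24 h after the carcinogen DMBA, or from skin that is called DMBA-untreated in the titles and acetone-treated in the descriptions. Each of the 4 groups had 2 one-colour arrays. The mice of these arrays have no age in the labels, and the labels do not say whether the 2 arrays of a group came from separate animals, so the p-values measure the spread between these samples, which may be technical. All 8 arrays lay on 1 slide, with the 4 DMBA arrays in one row and the 4 untreated arrays in the other, so that an effect of DMBA and one of the slide row cannot be told apart. In whole skin, fewer cells of a type and less RNA per cell cannot be told apart either.

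Matrix metalloproteinases are zinc-dependent enzymes that are made as inactive precursors and cut collagens, proteoglycans and other proteins of the extracellular matrix. The collagenases start the breakdown of fibrillar collagen, the gelatinases cut the denatured product, the stromelysins have broad substrates and can activate other precursors, and the membrane-type enzymes act at the cell surface. Adamts enzymes carry thrombospondin repeats, and among them are the proteoglycan-cleaving aggrecanases and the enzymes that trim procollagen. Timp proteins bind the active site of these proteinases. In skin, this system is best known for its part in wound repair, in hair follicle remodelling and in tumour invasion. CD109 is a cell surface protein that restrains TGF-beta signaling, and TGF-beta regulates several of these genes.

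Of the Mmp genes, 8 on the array lie in 1 cluster on chromosome 9 (GRCm38.p6, chr9:7272514-7699585), and its collagenases, stromelysins and metalloelastase are the genes described first below. The stretches just before an annotated start of 6 of them are shown, since the values of these genes come first. Every match to TGANTCA, a pattern that includes the AP-1 site TGAGTCA or TGACTCA, is in capitals. Each stretch is 100 bases up to the annotated start (RefSeq, GRCm38.p6), read along the gene's own strand. For Mmp12 it stands before the second of 2 annotated starts, inside the gene (chr9:7344397-7360461).
Mmp13, chr9:7272414-7272513, plus strand: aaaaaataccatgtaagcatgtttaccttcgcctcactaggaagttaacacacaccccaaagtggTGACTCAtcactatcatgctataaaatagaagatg
Mmp1b, chr9:7388027-7388126, minus strand: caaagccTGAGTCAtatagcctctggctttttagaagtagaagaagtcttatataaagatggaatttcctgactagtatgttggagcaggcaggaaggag
Mmp1a, chr9:7464041-7464140, plus strand: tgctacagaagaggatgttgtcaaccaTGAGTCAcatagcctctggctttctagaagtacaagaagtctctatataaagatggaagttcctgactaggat
Mmp3, chr9:7445722-7445821, plus strand: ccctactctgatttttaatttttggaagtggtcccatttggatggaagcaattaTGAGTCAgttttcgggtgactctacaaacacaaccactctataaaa
Mmp10, chr9:7502242-7502341, plus strand: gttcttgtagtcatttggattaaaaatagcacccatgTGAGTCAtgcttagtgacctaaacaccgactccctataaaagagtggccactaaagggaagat
Mmp12, chr9:7347274-7347373, plus strand: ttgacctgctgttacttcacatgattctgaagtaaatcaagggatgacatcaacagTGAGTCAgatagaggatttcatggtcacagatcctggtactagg

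TGANTCA reads the same on both strands, so both were searched, over the 250 bases before each annotated start. It was present upstream of all 8 cluster genes (Mmp1a, Mmp1b, Mmp3, Mmp7, Mmp10, Mmp12, Mmp13 and Mmp20), at a start between -95 and -35, and in the second of 2 annotated starts of Mmp12 and the first of 2 of Mmp7. It was found in none of the 22 other members with an entry in the table, among them Timp1 and all 10 Adamts genes listed there. Of all 32851 entries, 2217 (6.75%) held it, and of the 27025 genes with an entry 2113 (7.82%) did. The match of Mmp20 was TGAATCA, which is neither of the AP-1 forms named above. A match is a description of the sequence, and it does not show that a factor binds there. Mmp7 and Mmp20 hold the motif too, yet neither was well above background on any array.

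Values are log2 signals, that is, log2 of the deposited intensity minus log2 of the 75th percentile of the same array (an intensity of 336.5 to 526.9 over the 8 arrays). They compare arrays for 1 probe and do not rank different genes. Between 63.59% and 67.04% of probes were well above background on an array. Cd109 itself went against 2 labels. Its log2 signal was -7.85 and -7.52 on the CD109-/- DMBA arrays and 1.09 and 1.67 on the CD109+/+ DMBA arrays, but -6.28 on the array labelled CD109+/+ untreated 2 and 1.89 on the array labelled CD109-/- untreated 1, against 2.29 on CD109+/+ untreated 1 and -7.90 on CD109-/- untreated 2. Each result is therefore given with the labels as deposited and with these 2 arrays exchanged. The exchange was read from the arrays, so p-values under it describe the arrays divided by Cd109 signal and are no independent evidence of a genotype effect. The 4 arrays low in Cd109 were also high in hair shaft keratins: the mean log2 signal of the 12 keratins measured was 0.79 to 5.42 on them and -4.46 to -4.07 on the 4 arrays high in Cd109, and none of the 12 was below background on every array. By the mean log2 signal of their lists, markers of fibroblasts (3.19 to 3.90 against 4.003 to 4.263), macrophages (1.17 to 2.03 against 2.32 to 3.20), endothelium (-0.18 to 0.25 against 0.91 to 1.17), skeletal muscle (3.07 to 4.77 against 5.29 to 6.16), adipocytes (2.12 to 3.09 against 3.53 to 4.35) and mast cells (0.82 to 1.51 against 1.63 to 2.38) were lower on the Cd109-low arrays without overlap, and epidermal markers overlapped (5.34 to 5.87 against 5.77 to 6.25). All 8 epidermal, 7 fibroblast and 8 macrophage markers were above background on all arrays. The part of these differences in the results below was not tested.

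The first comparison asks which members differed in CD109+/+ skin 24 h after DMBA. The collagenases Mmp13 and Mmp1b, the stromelysins Mmp3 and Mmp10 and the inhibitor Timp1 were all highest on the 2 CD109+/+ DMBA arrays. For the collagenase Mmp13 the log2 signal was -0.52 and -1.02 on these arrays, -3.40 and -3.96 on those labelled CD109+/+ untreated, -4.95 and -3.82 on those labelled CD109-/- untreated, and -4.68 and -4.51 on the CD109-/- DMBA arrays. The CD109+/+ DMBA arrays stood above the other 6, which overlapped among themselves. Mmp1b, grouped here with the collagenases, read -1.95 and -2.87 on the CD109+/+ DMBA arrays and between -6.56 and -4.64 on the other 6. Of these 6 arrays, 5 were not well above background. Mmp1a, the paralog of Mmp1b, was dimmer, at -3.99 and -5.33 on the CD109+/+ DMBA arrays. It read -7.63 to -5.82 on the others, none of which was well above background.

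Mmp3, stromelysin 1, was bright on all 8 arrays. Its log2 signal was 4.99 and 4.77 on the CD109+/+ DMBA arrays, 2.88 and 2.22 on those labelled CD109+/+ untreated, 2.92 and 2.27 on those labelled CD109-/- untreated, and 2.65 and 1.86 on the CD109-/- DMBA arrays. Among untreated arrays, the 2 that were high in Cd109 read higher than the 2 that were low in it, whatever their label. Mmp10, stromelysin 2, was -2.37 and -3.66 on the CD109+/+ DMBA arrays, -5.01 on CD109+/+ untreated 1, and -7.67 to -6.28 on the other 5 arrays, where it was not well above background. The macrophage elastase Mmp12 was -3.28 and -2.27 on the CD109+/+ DMBA arrays and -5.44 to -4.21 elsewhere. On the same 2 CD109+/+ DMBA arrays, the mean of the 8 macrophage markers was 3.19 and 3.20 (1.17 to 2.83 on the other 6). That of 9 neutrophil markers was 2.04 and 1.3 (-0.58 to 1.22) and that of 5 mast cell markers 2.38 and 2.19 (0.82 to 1.72). Of the neutrophil markers, only Cxcr2 and Retnlg were higher on both these arrays than on all others. The neutrophil marker Csf3r and the macrophage marker Itgam were lower on them than on both CD109-/- DMBA arrays. Ngp, which is in the neutrophil mean, was well above background on 2 arrays only. The part of these cell types in the values of the proteinases was not tested.

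Timp1, a secreted inhibitor that many cells induce with inflammation, had log2 signals of 5.34 and 5.07 on the CD109+/+ DMBA arrays, 2.03 and 1.44 on those labelled CD109+/+ untreated, 0.86 and 1.75 on those labelled CD109-/- untreated and 2.17 and 2.23 on the CD109-/- DMBA arrays. With the labels as deposited it was the 1 member of 36 tested that passed at an adjusted p under 0.05 (limma with Benjamini-Hochberg adjustment over all probes), beside 0.146% of all 36921 tested probes that passed as higher. The log2 fold change was 3.47 (SE 0.35, n = 2 arrays a group, adjusted p = 0.0437, higher in 4 of 4 array pairs). This call was lost without either CD109+/+ DMBA array (adjusted p = 0.25 without replicate 1 and 0.207 without replicate 2 for Timp1), without either CD109-/- DMBA array (0.138 and 0.132), without CD109+/+ untreated 1 (0.0566) and without the array labelled CD109+/+ untreated 2 (0.0877). It held without both arrays in doubt, at 3.17 (adjusted p = 0.0415 for Timp1).

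With the 2 arrays exchanged, 6 of 36 members passed as higher after DMBA in CD109+/+ skin and 0 as lower, beside 2.37% of 37147 tested probes that passed as higher. They were Timp1 (log2 fold change 3.76, SE 0.38, adjusted p = 0.0162), Mmp13 (3.41, SE 0.49, adjusted p = 0.0305), Mmp1b, Mmp3 (1.98, SE 0.26, adjusted p = 0.0258), Adamts4 and Adamts15. Mmp1b was at least 8.47-fold higher, since both untreated arrays then in the group were not well above background (adjusted p = 0.0316 from limma). Mmp1b entered the test only through the CD109+/+ DMBA arrays, where it is high, so its call adds no support, and 5 of the 6 passed when a probe had to be well above background on all arrays. Mmp10, at 3.33 (SE 0.88), did not pass (adjusted p = 0.103), nor did Mmp12, Mmp19 and Mmp1a. The median over the 36 members was 0.39 with the labels and 0.35 with the exchange, against -0.01 and -0.02 over all tested probes, and of the 3 families the Mmp genes had the highest medians (1.08 and 0.60 over 17 tested). Without either CD109+/+ DMBA array none of the 6 passed. Without CD109+/+ untreated 1, Mmp3, Adamts4 and Adamts15 no longer passed, while Mmp10 did. Mmp10 was tested only through the CD109+/+ DMBA arrays, so that call adds no support. Only Timp1 and Adamts15 remained without the array labelled CD109+/+ untreated 2. Only Timp1 and Mmp13 remained without the array labelled CD109-/- untreated 1, and only Adamts15 without CD109-/- untreated 2.

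**Figure D1:**
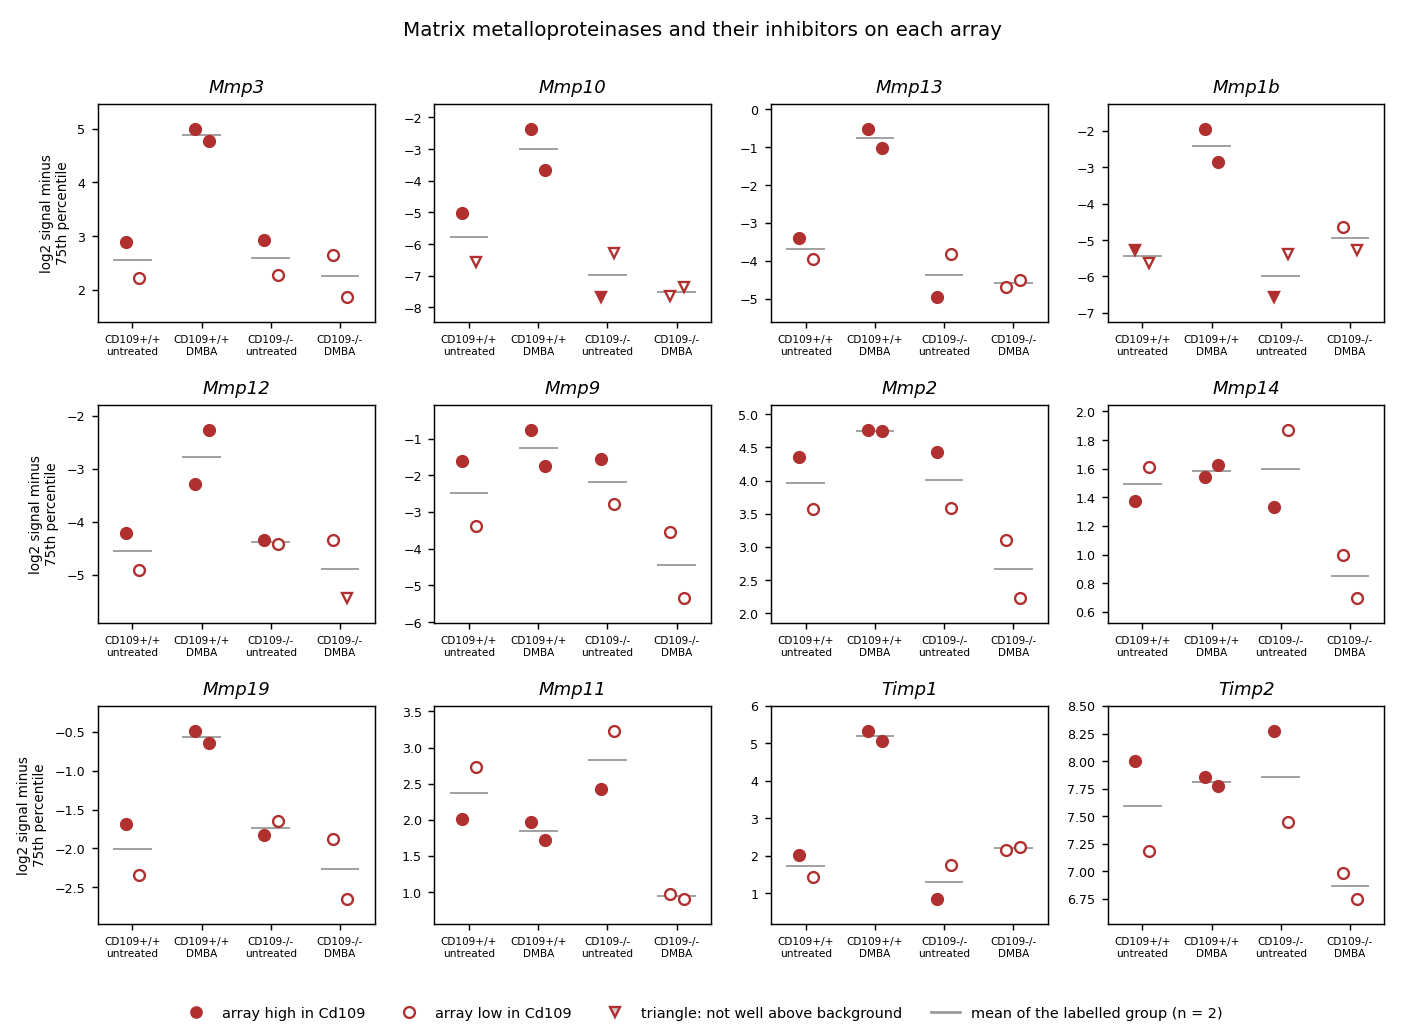
Log2 signal minus the array's 75th percentile (vertical axis, its own range in each panel) of 10 Mmp and 2 Timp genes on each of the 8 arrays, with groups as labelled on the horizontal axis. Filled points are arrays high in Cd109, open points arrays low in it, triangles arrays where the probe was not well above background, and grey lines the mean of the 2 arrays of a labelled group. Mmp3, Mmp10, Mmp13, Mmp1b, Mmp12, Mmp19 and Timp1 are highest on the 2 CD109+/+ DMBA arrays, while Mmp9 and Timp2 follow the filled and open points.

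Irrespective of the untreated labels, the 2 CD109+/+ DMBA arrays can be set against the other 6. Both lay above all others for 12 of the 36 tested members (33.3%), beside 13.2% of all tested probes, and below all others for 0 members, beside 12.2% of all tested probes. The 12 were Mmp1a, Mmp1b, Mmp2, Mmp3, Mmp10, Mmp12, Mmp13, Mmp19, Mmp23, Adamts1, Adamts15 and Timp1. Of these, Mmp1a, Mmp1b and Mmp10 were tested only because they were well above background on the CD109+/+ DMBA arrays, so they had to be high there. Among the 28 members well above background on all 8 arrays the count was 8 (28.6%), beside 14.3% of such probes. Mmp19, an enzyme of resting skin, was -0.49 and -0.64 on the CD109+/+ DMBA arrays and -2.65 to -1.65 on the others. Mmp23, a type II membrane protein, was 2.16 and 1.90 against 0.58 to 1.59. Adamts1, which cuts versican and aggrecan, was 3.81 and 4.02 against 3.10 to 3.44.

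In CD109-/- skin no member passed between DMBA and untreated arrays, the stromelysins and collagenases included. With the labels as deposited, 0 of 36 members passed between DMBA and untreated CD109-/- skin in limma, where 0% of all probes passed, and 9 members had an unadjusted p under 0.05 (14.3% of all probes did). With the exchange again 0 members passed, beside 0.0135% of probes, and 8 had an unadjusted p under 0.05 (17.5% of all probes). The log2 fold changes in the exchanged arrangement were 0.01 for Mmp3 (SE 0.26), -0.71 for Mmp13 (SE 0.49) and 0.61 for Timp1 (SE 0.38), and with the labels as deposited the sign for Mmp13 turned under the normexp background correction. Mmp10 was not well above background in either CD109-/- group. The lowest value with the exchange belonged to Mmp11, stromelysin 3, a stromal enzyme, at -2.04 (SE 0.23, adjusted p = 0.0756 from limma), and with the labels to Mmp9, at -2.27 (SE 0.88, adjusted p = 0.337), which was -1.37 with the exchange. At the other end with the labels were Adamts18, at 1.51 (SE 2.13) and turning to -0.99 with the exchange, and Mmp28, which was at least 1.64-fold higher with the labels (adjusted p = 0.293 from limma) and was tested only through the CD109-/- DMBA arrays. The log2 signal of Mmp11 was 0.98 and 0.91 on the CD109-/- DMBA arrays and 2.43 and 3.23 on those labelled CD109-/- untreated. On the 4 labelled CD109+/+ it was 1.72 to 2.73. Both CD109-/- DMBA arrays lay below all others for 7 of 36 members (19.4%), beside 8.01% of all tested probes, and above all others for 0, beside 14.9% of probes. The 7 were Mmp2, Mmp9, Mmp11, Mmp14, Mmp15, Adamts5 and Timp2.

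Whether DMBA acted differently in the 2 genotypes was tested as the difference of the DMBA effects. No member passed in either arrangement: 0 of 36 with the labels, beside 0% of probes, and 0 with the exchange, beside 0.0269%. At an unadjusted p under 0.05 there were 13 members with the labels (15.4% of all probes) and 14 with the exchange (21.1%). The estimates with the exchange were -4.12 for Mmp13 (SE 0.70, adjusted p = 0.0853 from limma), -3.15 for Timp1 (SE 0.53, adjusted p = 0.0853), -1.97 for Mmp3 (SE 0.37, adjusted p = 0.0979) and -4.81 for Adamts4 (SE 0.68, adjusted p = 0.0721), where a negative value is a smaller DMBA effect in CD109-/- skin. With the labels the same estimates were -3.12, -2.57, -2.67 and -0.95. The estimate for Mmp9 was -3.50 with the labels (SE 1.24) and -1.70 with the exchange (SE 0.89). Adamts18 and Adamts17 had the highest estimates with the labels, at 3.99 (SE 3.01) and 2.92 (SE 1.74), and both turned with the exchange, to -1.02 (SE 0.62) and -0.44 (SE 0.43). No value is given for Mmp10, whose readings in CD109-/- skin were at background. Under the normexp background correction in the exchanged arrangement, 7 members passed in this test.

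Averaged over genotypes, the DMBA estimate is the same in both arrangements. With the labels 0 of 36 members passed (0.0298% of all probes did, and 8 members beside 11.5% of probes at an unadjusted p under 0.05). With the exchange Timp1 (2.18, SE 0.27, adjusted p = 0.0341) and Adamts15 (1.25, SE 0.14, adjusted p = 0.0316) passed as higher, beside 1.06% of probes, and Mmp11 (-1.21, SE 0.16, adjusted p = 0.0383) as lower, beside 0.439%. Mmp9, at -0.52 with an adjusted p of 0.79 with the labels and 0.541 with the exchange in limma, changed sign under normexp with the labels. Mmp1b, which was not well above background on any untreated array, did not pass (adjusted p = 0.173 with the labels and 0.0615 with the exchange, limma). For Timp1 and Adamts15 every DMBA array read higher than every untreated array, and for Mmp11 every DMBA array read lower. Adamts1 and Adamts19, which did not pass, were likewise higher on every DMBA array. The share of all tested probes with such a separation was not counted. Calls for Timp1, Adamts15 and Mmp11 depended on single arrays: 0 of the 3 remained without CD109+/+ DMBA replicate 1, CD109+/+ DMBA replicate 2, the array labelled CD109+/+ untreated 2 or either CD109-/- DMBA array, and 1 of the 3 without CD109+/+ untreated 1 or either array labelled CD109-/- untreated.

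The second comparison sets CD109-/- against CD109+/+ skin after DMBA. These 4 arrays bear no doubt about their labels, and the exchange changes the estimated error but not the difference. The Mmp genes were mostly lower on the CD109-/- arrays: 15 of 17 tested had a negative log2 fold change, with a median of -1.70, or -1.12 with Mmp10 and Mmp1a set at the bound that the background allows, against 0.07 over all tested probes. The 15 tested Adamts genes had a median of 0.14 and were divided, 8 higher and 7 lower, but 7 and 8 with quantile normalization (median -0.13) and 5 and 10 with median centring (median -0.19). With the labels as deposited 0 of 36 members passed in limma, beside 0.0921% of all probes, and 16 had an unadjusted p under 0.05 (26.1% of all probes). The smallest adjusted p were those of Mmp13 (0.0694) and Timp1 (0.074). With the exchange 13 members passed as lower (8.47% of all probes did) and 3 as higher (11.6%).

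The lower genes included the collagenases Mmp13 and Mmp1b and the stromelysins Mmp3 and Mmp10, while the collagenase Mmp1a did not pass. Mmp13 differed by -3.83 (SE 0.49, adjusted p = 0.0177) and Mmp3 by -2.62 (SE 0.26, adjusted p = 0.0116), Mmp1b by -2.55 (SE 0.51, adjusted p = 0.0308) and Mmp12 by -2.12 (SE 0.47, adjusted p = 0.0354), the last 2 with 1 CD109-/- array each not well above background. Mmp10 was at least 5.93-fold lower, as neither CD109-/- array was well above background (adjusted p = 0.0297 from limma). Mmp10 and Mmp1b were tested only through the CD109+/+ DMBA arrays, where they are high, so their calls in this contrast add no support. Timp1 was 8-fold lower in the same contrast (SE 0.38 on the log2 scale, adjusted p = 0.0169). Timp2, which also takes part in the activation of the Mmp2 precursor, was 7.85 and 7.78 against 6.99 and 6.75 (-0.94, SE 0.17, adjusted p = 0.0264). Its other probe gave -1.63 (adjusted p = 0.0327).

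Both gelatinases were among them. Mmp2, the gelatinase of fibroblasts, read 4.76 and 4.74 on the CD109+/+ DMBA arrays, 3.11 and 2.23 on the CD109-/- DMBA arrays, and 4.35, 4.42, 3.58 and 3.59 on the untreated arrays CD109+/+ 1, CD109-/- 1, CD109+/+ 2 and CD109-/- 2 as labelled. The difference after DMBA was -2.08 (SE 0.28, adjusted p = 0.0184). Mmp9, the gelatinase of neutrophils, macrophages and activated keratinocytes, read -0.76 and -1.76 on the CD109+/+ DMBA arrays, -3.55 and -5.34 on the CD109-/- DMBA arrays, and -1.60, -1.57, -3.37 and -2.78 on the untreated arrays in the same order. Its difference was -3.19 (SE 0.63, adjusted p = 0.0303). For both gelatinases the untreated arrays divide by Cd109 signal and not by label. Mmp14, the membrane-type activator of the Mmp2 precursor, was 1.54 and 1.63 against 1.00 and 0.70 (-0.74, SE 0.16, adjusted p = 0.0342), and its untreated arrays lay between 1.33 and 1.87. The rest that passed as lower were Mmp19 (-1.70), Adamts5 (-1.16) and Mmp11 (-0.90).

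Higher in CD109-/- skin after DMBA were Adamts18 (4.02, SE 0.44, adjusted p = 0.0136), Adamts17 (2.46, SE 0.31, adjusted p = 0.0168) and Adamts6. Adamts6 was at least 4.08-fold higher, with neither CD109+/+ DMBA array well above background (adjusted p = 0.0491 from limma). In either arrangement Adamts6 was tested only through CD109-/- groups, where it is high, so its call adds no support. Without CD109+/+ DMBA 1 or without CD109+/+ DMBA 2 none of the 16 members passed, and without CD109-/- DMBA 2 there were 3 (Mmp2, Mmp3 and Adamts18). The number was 10 without CD109+/+ untreated 1, 8 without the array labelled CD109+/+ untreated 2, and 8 without CD109-/- untreated 2. When the fit held only the 4 DMBA arrays 0 members passed, with an adjusted p of 0.0602 to 0.1 for the 16. The same 4 arrays differed in hair shaft keratins (0.79 and 5.42 against -4.46 and -4.39) and in macrophage markers (1.78 and 1.17 against 3.19 and 3.20). Between the 2 CD109-/- DMBA arrays, replicate 2 had the higher keratin signal. It was the lower in most tested members, among them Mmp2, Mmp3, Mmp9, Mmp12, Mmp14, Mmp19 and Timp2, and also Adamts17 (-1.31 against -1.24). It was the higher in Adamts5, Adamts6, Adamts12, Adamts18, Mmp24 and Mmp28, among others. This sets 1 array against 1, and the share of all probes that were lower on replicate 2 was not counted. Mmp13 and Timp1 differed by less than 0.3 between these 2 arrays. The part of hair shaft and macrophage RNA in these differences was not tested.

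**Figure D2:**
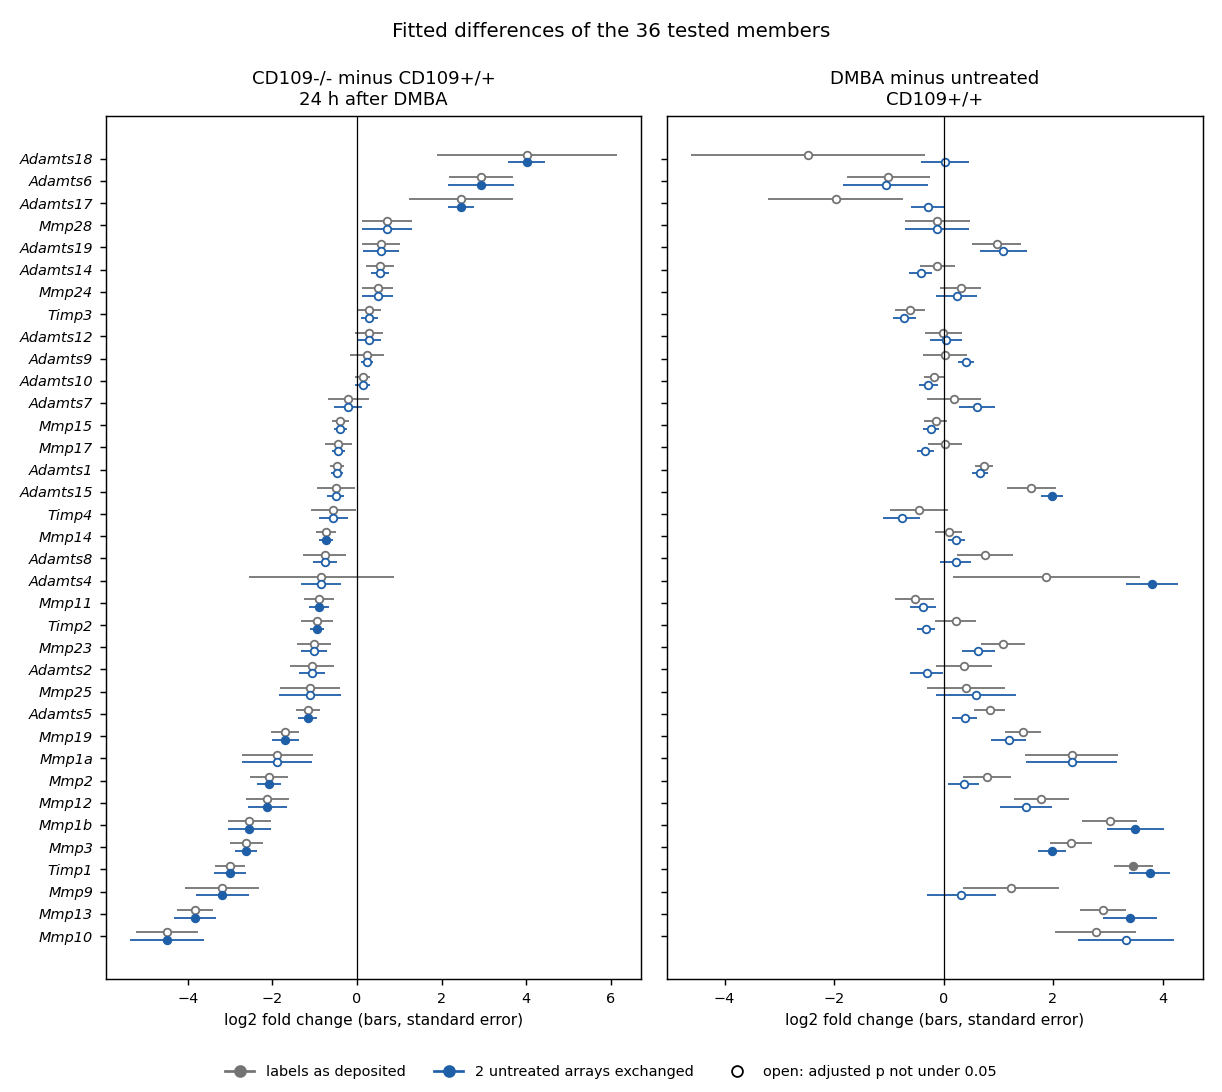
Log2 fold changes of the 36 tested members (horizontal axis; bars are 1 standard error) for CD109-/- minus CD109+/+ after DMBA on the left and for DMBA minus untreated in CD109+/+ skin on the right. Grey points use the labels as deposited and blue points the 2 untreated arrays exchanged, and filled points passed at an adjusted p under 0.05. On the left both sets of points lie at the same values and differ in error, with Mmp13 at -3.83 and Adamts18 at 4.02, and on the right Timp1 is the 1 filled grey point. For Mmp10, Mmp1a and Adamts6 on the left and Mmp1a, Mmp1b and Adamts6 on the right, a group was not well above background, so these points are fitted values and not measured differences.

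Of the Adamts genes, Adamts18 had the widest separation by Cd109 signal. Adamts18 was -4.48 and -4.69 on the untreated arrays high in Cd109, -4.10 and -5.01 on the CD109+/+ DMBA arrays, 0.32 and 0.59 on the untreated arrays low in Cd109 and -1.08 and 0.01 on the CD109-/- DMBA arrays. Adamts17 gave -3.004, -3.89, -3.53 and -3.94 on the 4 arrays high in Cd109 and -0.53, -0.55, -1.24 and -1.31 on the 4 low in it, in the same order. For both genes 1 array labelled CD109+/+ untreated and 1 labelled CD109-/- untreated fell on either side. The substrates of these Adamts enzymes in skin are less well known than those of the aggrecanases.

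The aggrecanases did not move as 1 group. Adamts4 was near or above -0.45 on 5 arrays and -1.74 on CD109-/- DMBA 2, and it was low on 2, at -3.78 on CD109+/+ untreated 1 and -4.30 on the array labelled CD109-/- untreated 1. It was thus low on the untreated arrays with Cd109 and as high after DMBA with Cd109 as on the untreated arrays without it. With the exchange, Adamts4 differed by 3.80 between DMBA and untreated CD109+/+ skin (SE 0.48, adjusted p = 0.023) and by 3.96 between genotypes in untreated skin (SE 0.48, adjusted p = 0.0122). Adamts15 was -0.01 and -0.07 on the untreated arrays high in Cd109, 0.70 and 1.16 on those low in it, 2.13 and 1.77 on the CD109+/+ DMBA arrays and 1.46 and 1.43 on the CD109-/- DMBA arrays, with no overlap between any of these 4 pairs. Its change with DMBA in CD109+/+ skin was 1.98 with the exchange (SE 0.20, adjusted p = 0.0162) and 1.60 with the labels (SE 0.45, adjusted p = 0.297 from limma). Adamts5, the main aggrecanase of mouse cartilage, was 0.19 and -0.01 on the CD109+/+ DMBA arrays and -1.18 and -0.97 on the CD109-/- DMBA arrays.

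**Figure D3:**
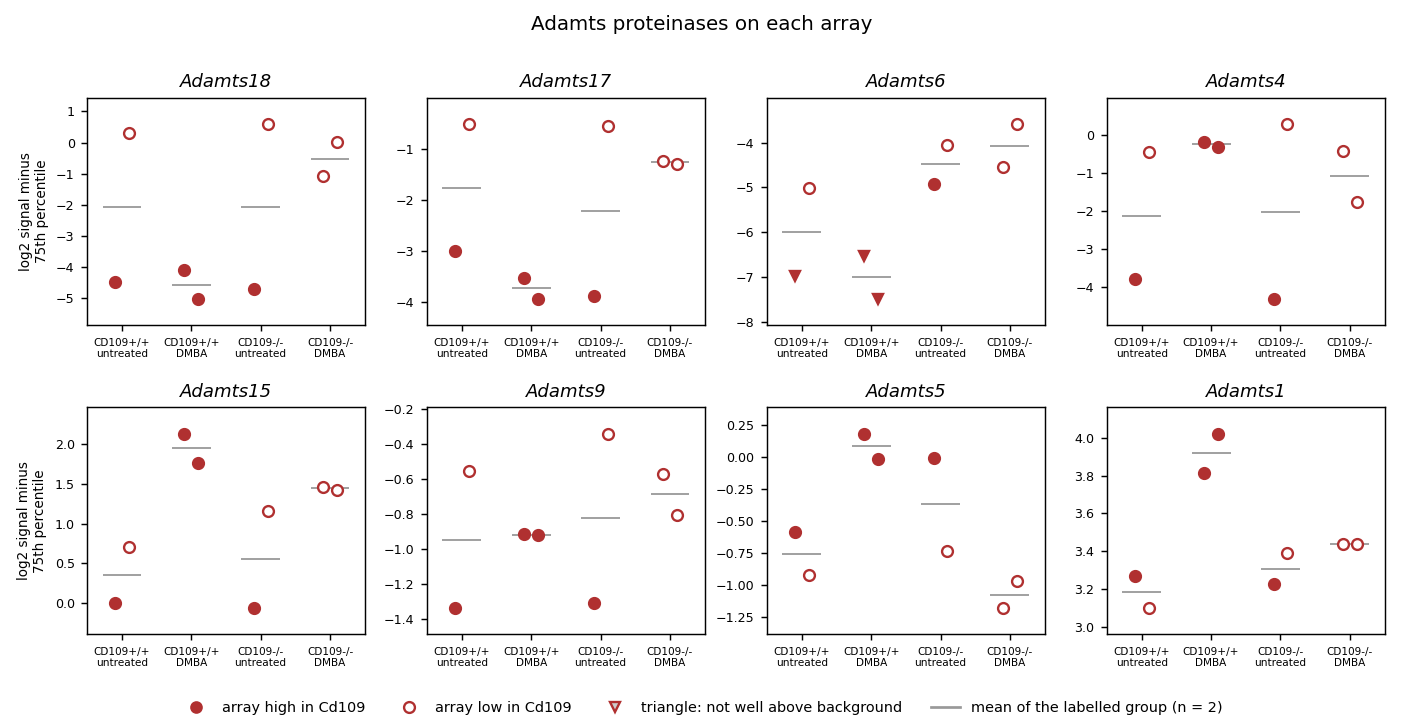
Log2 signal minus the array's 75th percentile (vertical axis, its own range in each panel) of 8 Adamts genes on the 8 arrays, with labelled groups on the horizontal axis and symbols for Cd109 signal, background and group means as explained in the legend. Adamts18 and Adamts17 separate open from filled points in all groups, Adamts4 is low on the 2 filled untreated points, and Adamts15 and Adamts1 are highest on the CD109+/+ DMBA arrays.

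In untreated skin the comparison of genotypes rests on the arrays whose labels are in doubt. With the labels as deposited 0 of 36 members passed in limma, beside 0.00542% of all probes, and 0 had an unadjusted p under 0.05 (2.15% of all probes). With the exchange, 5 members passed as higher in the arrays low in Cd109, all of them Adamts genes (4.95% of all probes), and 1 as lower (3.95%). They were Adamts18 (5.04, SE 0.44, adjusted p = 0.00599), Adamts4, Adamts17 (2.91, SE 0.31, adjusted p = 0.00861), Adamts15 (0.97) and Adamts9 (0.88), and Timp2 was lower (-0.82, SE 0.17, adjusted p = 0.0423). No Mmp gene passed there, and 3 of 17 had a negative value with an unadjusted p under 0.05 and 1 a positive one. With the labels, Adamts18 differed by 0.03 (SE 2.13), Adamts17 by -0.46 (SE 1.23), Adamts4 by 0.11 (SE 1.71) and Timp2 by 0.27 (SE 0.38), all with an adjusted p of 1. The direction of Adamts17 and Timp2 in untreated skin thus turns with the exchange. Of the 6 calls, 3 remained without either CD109+/+ DMBA array or CD109+/+ untreated 1, 2 without the array labelled CD109-/- untreated 1, and 1 without CD109-/- untreated 2 or the array labelled CD109+/+ untreated 2. Without CD109-/- DMBA 1 or 2 there were 12.

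Averaged over treatments with the labels as deposited, CD109-/- minus CD109+/+ gave 0 of 36 members that passed (0.00271% of all probes) and 9 with an unadjusted p under 0.05 (12.3%). With the exchange this is the difference of the 4 arrays low in Cd109 from the 4 high in it. Then 15 members passed as lower, beside 15.8% of all probes, and 5 as higher, beside 15%. The 5 were Adamts4, Adamts6, Adamts9, Adamts17 and Adamts18. Those lower were Mmp2, Mmp3, Mmp9, Mmp10, Mmp12, Mmp13, Mmp15, Mmp17, Mmp19, Mmp23, Adamts2, Adamts5, Adamts8, Timp1 and Timp2, from -2.34 for Mmp9 to -0.36 for Mmp15. Mmp10 was tested only through the CD109+/+ DMBA arrays and Adamts6 only through CD109-/- groups. Each is high there, so these calls add no support. Adamts2, which trims the amino end of fibrillar procollagens, read 5.74 to 6.44 on the arrays high in Cd109 and 4.43 to 5.20 on those low in it. Without overlap, 3 members (8.33%) were higher on all 4 Cd109-low arrays, namely Adamts9, Adamts17 and Adamts18, beside 13.2% of tested probes. In the other direction there were 9 (25%), beside 14.1%, namely Mmp2, Mmp3, Mmp9, Mmp12, Mmp17, Adamts2, Adamts5, Adamts8 and Timp2. The number that passed fell to 5 without CD109+/+ DMBA 1, 6 without CD109+/+ DMBA 2, 12 without CD109+/+ untreated 1, 7 without the array labelled CD109+/+ untreated 2, and 10 without either array labelled CD109-/- untreated.

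**Figure D4:**
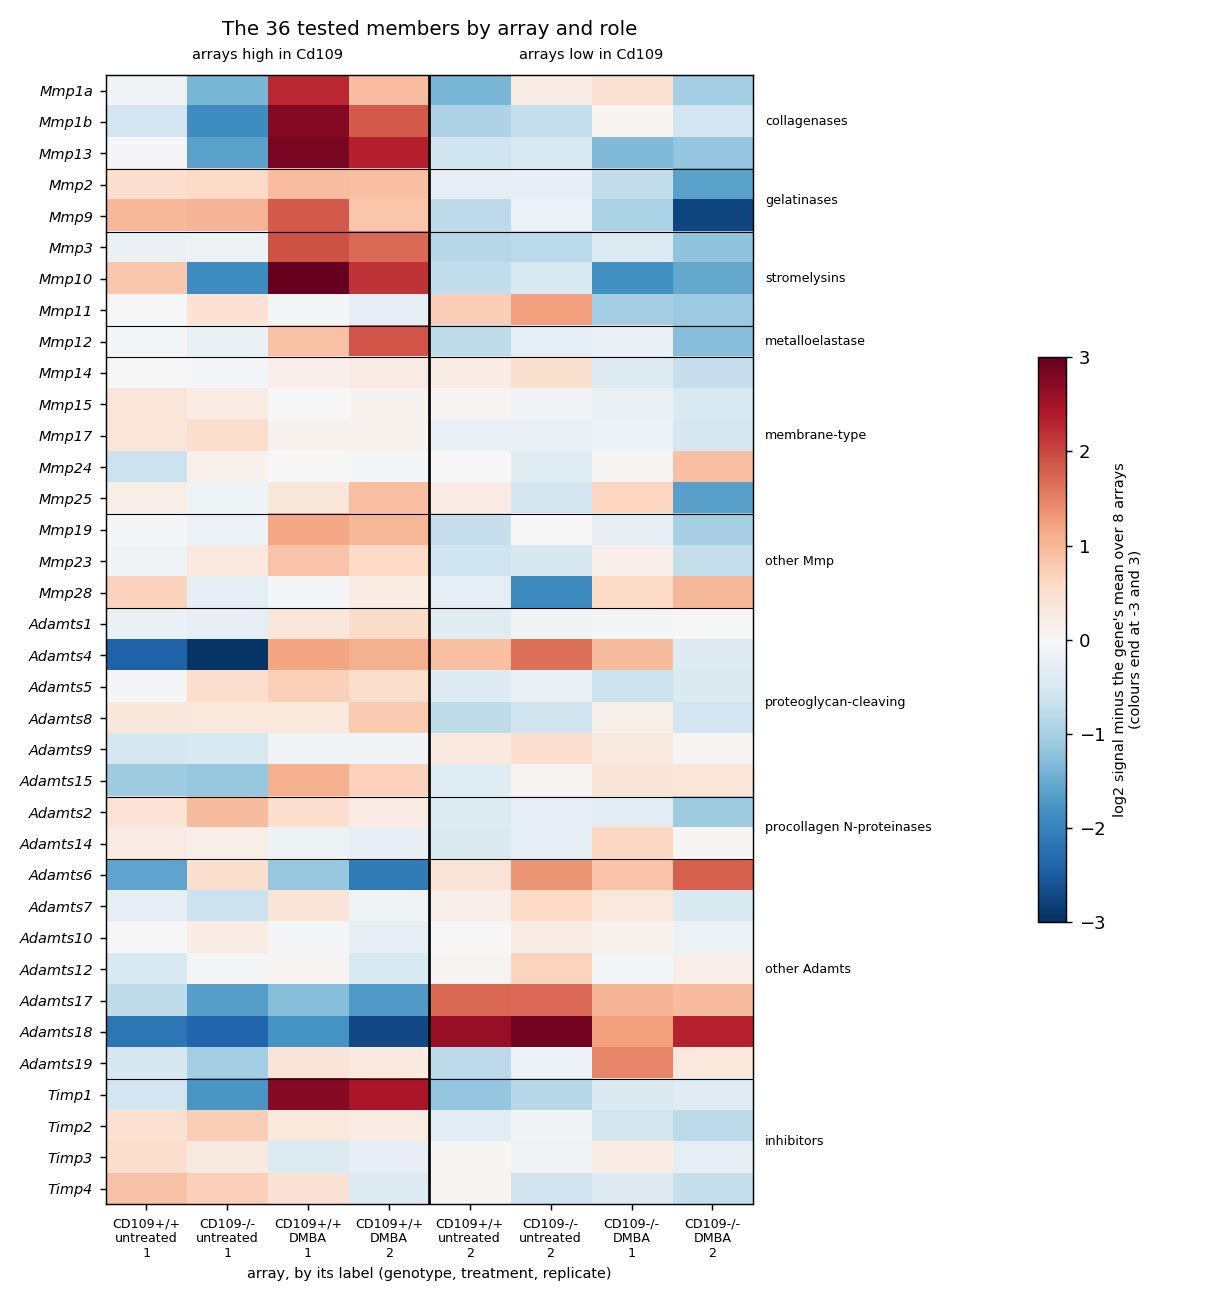
The 36 tested members (rows, grouped by role) on the 8 arrays (columns, by label, with the 4 arrays high in Cd109 on the left of the black line), coloured by log2 signal minus the gene's mean over the 8 arrays, from -3 in blue to 3 in red. The 2 CD109+/+ DMBA arrays are red for the collagenases, for Mmp3 and Mmp10 and for Timp1, and Adamts17 and Adamts18 are blue on the left and red on the right of the line.

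Timp3, the inhibitor bound to the matrix, was 3.47 and 3.63 on the CD109+/+ DMBA arrays, 4.10 and 3.59 on the CD109-/- DMBA arrays and 3.78 to 4.40 on the untreated arrays. It fell short of the threshold in every comparison (in CD109+/+ skin after DMBA -0.62 with the labels, adjusted p = 0.466, and -0.72 with the exchange, adjusted p = 0.123, from limma). Timp4, whose expression is the most restricted of the family, ranged from -1.95 to -0.37 and passed in none of the 7 comparisons in either arrangement. Timp1 was the 1 inhibitor with a positive change after DMBA in CD109+/+ skin under the exchange.

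Of the 44 members, 8 were not tested. Mmp7, Mmp16, Mmp20, Mmp21, Adamts13, Adamts16 and Adamts20 were not well above background on any array at the probe used, and Adamts3 was so on 1 array. Tested members that passed in no comparison in either arrangement were Mmp1a, Mmp24, Mmp25, Mmp28, Adamts1, Adamts7, Adamts10, Adamts12, Adamts14, Adamts19, Timp3 and Timp4. Of these, Adamts10 had the narrowest range, from -3.23 to -2.72. A further 2, Mmp28 and Mmp24, were near background, on 4 and 6 of 8 arrays above it. Adamts14, a procollagen-trimming enzyme, had probes that differed: after DMBA its second probe was 1.57 higher in CD109-/- skin with the exchange (adjusted p = 0.0285) and the chosen probe 0.54 higher (adjusted p = 0.11, limma). The second probe of Adamts5 gave -0.90 in this contrast and did not pass (adjusted p = 0.086).

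The genes around these proteinases were described from 4 lists. Over all tested probes, 8.47% passed as lower and 11.6% as higher in CD109-/- skin after DMBA with the exchange, and 26.1% had an unadjusted p under 0.05 with the labels, and the counts below are to be read beside these shares. Of 10 tested genes of the plasminogen system and the convertases that activate proteinase precursors, 6 were lower and 1 higher in CD109-/- skin after DMBA with the exchange, and 0 passed with the labels, where 6 had an unadjusted p under 0.05. Plaur, the urokinase receptor, read 2.12 and 2.23 on the CD109+/+ DMBA arrays, 0.41 and -0.33 on the CD109-/- DMBA arrays, 1.01 and 0.96 on the untreated arrays high in Cd109 and 0.29 and 0.55 on those low in it. Plau, Plat, Serpinb2 and Pcsk6 were also among the lower genes, and Plg was the higher one. Plg was well above background on 4 arrays only. On the CD109+/+ DMBA arrays it read -8.36 and -6.82, under their lowest detected signals of -6.03 and -6.15. It was tested only through groups low in Cd109, where it is high, so its call adds no support. The median over the list was -0.97 after DMBA.

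Of 12 tested inhibitors, inducers and clearance genes, 4 passed as lower after DMBA with the exchange (Tfpi2, Thbs2, Adamtsl4 and Lrp1) and 0 of 11 tested with the labels. Tfpi2 was well above background on 2 arrays only. It read -4.39 and -4.83 on the CD109+/+ DMBA arrays and -7.24 and -7.17 on the CD109-/- DMBA arrays. Tfpi2 was tested only through the CD109+/+ DMBA arrays, where it is high, so its call adds no support. Lrp1, the receptor that clears several proteinases with their inhibitors, differed by -0.90 (SE 0.18, adjusted p = 0.0301). Of 10 related metalloproteinases, 4 were lower (Adam8, Adam9, Adam15 and Bmp1) with the exchange and 0 passed with the labels. Adam8, a proteinase of leukocytes, read 3.71 and 4.06 on the CD109+/+ DMBA arrays, 2.41 and 1.20 on the CD109-/- DMBA arrays and 2.21 to 2.83 on the untreated arrays. Of 14 tested substrates, 2 were higher (Acan and Col7a1) and 2 lower (among them Fbn1) with the exchange, and 0 passed with the labels. Acan, the aggrecan that Adamts4 and Adamts5 cut, was -5.19 to -4.67 on the 4 arrays high in Cd109 and -2.30 to -0.76 on the 4 low in it. The fibrillar collagens Col1a1, Col1a2 and Col3a1, the substrates of the collagenases, passed in no comparison. The medians of these 3 lists after DMBA were -0.82, -0.66 and -0.31 with the exchange, against 0.07 over all tested probes.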

How the data were processed

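The authors hybridized Cy3-labelled RNA of 8 skin samples to 1-colour Agilent mouse arrays and deposited, per the file headers, intensities from Agilent Feature Extraction 11.5.1.1 on a linear scale, background-subtracted and detrended within the array but not normalized between arrays. The deposited value table holds these intensities times 1 constant per array (1.924 to 3.387), and how the constant was set is not given in the sources used here. No deposited column was left unmapped to a sample.

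Control and outlier spots were left out (1598 outlier readings), spots of a probe were averaged, and 223 of 55681 probes without an unflagged spot on every array were dropped. Log2 intensities were centred on the array's 75th percentile over probes. RefSeq accessions named 28026 of 29796 probes that carry one (94.1%). The test took in each probe that the scanner software marked as well above background on both arrays in 1 group or more. Of the 36 tested members, 4 passed this filter through 1 group alone (Mmp10, Mmp1a, Mmp1b and Mmp28). Groups were compared with limma 3.58.1 in R 4.3.3, with 1 mean per group over all 8 arrays and Benjamini-Hochberg adjustment over all tested probes at 0.05. Where a whole group was not well above background, its arrays were set to their lowest detected signal and the fold is given as a lower bound. The design was tested on simulated data that lacked the division of the untreated arrays by Cd109 signal. The outcome is not used here. Array number limits precision.

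The members and lists were chosen with earlier results of these data known. Members are named where they passed in either arrangement, as the 2 highest and 2 lowest with the labels where fewer than 4 passed, or because they are Timp genes, Mmp2, Mmp3, Mmp9, Mmp10, Mmp13, Mmp14 or Adamts18. Genes named outside this rule were chosen after their values were seen. The alternatives were quantile and median scaling, normexp on spot and background medians with an offset of 50, other filters, the replicate number as a block, the methods' t-test or two-way test, the value table, the mean of a gene's probes, the exchange or removal of the 2 arrays in doubt, fits of the arrays compared alone, and removal of each array. Alternatives to the exchanged arrangement were added after seeing the data. Values of some genes of the surrounding lists are not reported here.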

Additional observations from a re-analysis of the deposited data

How the results depend on the processing

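With the labels as deposited, 1 member passed for DMBA in CD109+/+ skin (Timp1) and 0 in the 6 other comparisons. The call for Timp1 held with median centring, the mean of a gene's probes and without both arrays in doubt, while the count was 0 with quantile normalization, without a filter, with a filter on all arrays, with the value table, with the methods' t-test after adjustment, and with the compared arrays alone, and 2 with normexp. The methods' t-test or two-way test without adjustment gave 8 for DMBA in CD109+/+ skin, 1 in CD109-/- skin, 8 for the difference of the DMBA effects, 8 for DMBA averaged over genotypes, 15 for genotype after DMBA, 1 in untreated skin and 7 averaged over treatments. Genotype after DMBA gave 2 (Mmp13 and Timp1) with median centring and with normexp. Exchanging the 2 arrays gave 6 for DMBA in CD109+/+ skin, 16 for genotype after DMBA, 6 in untreated skin, 20 averaged over treatments and 3 for DMBA averaged over genotypes, and turned the direction of Adamts17 (to 2.91) and Timp2 (to -0.82) in untreated skin and of Adamts4 averaged over treatments (to 1.56). Leaving out 1 array gave 0 to 1 for DMBA in CD109+/+ skin, for the difference of the DMBA effects, for both averages and for genotype in untreated skin, and 0 to 0 for genotype after DMBA and for DMBA in CD109-/- skin. Without CD109+/+ untreated 1, the call for DMBA in CD109+/+ skin was Adamts16, not Timp1, and it was lower. Adamts16 also gave the calls without that array in untreated skin, for the difference of the DMBA effects and for DMBA averaged over genotypes. Its second probe was well above background on 1 array. It passed the filter only where that array was left alone in its group, so these calls add no support. Under the exchange it was added in this way without CD109-/- untreated 2.

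Whether the replicate numbers pair the arrays is not settled. Deviations of same-numbered arrays correlated between -0.0823 and 0.731 over 6 pairs of groups. As labelled, both untreated arrays numbered 1 were high in Cd109 and both numbered 2 were low in it. With the replicate block and the labels, 0 members passed for DMBA in CD109+/+ skin and 6 for genotype after DMBA (Mmp2, Mmp3, Mmp9, Mmp13, Mmp19 and Timp1). With the replicate block and the exchange, 2 passed for DMBA in CD109+/+ skin, 0 for DMBA averaged over genotypes, 5 for genotype averaged over treatments and 0 in untreated skin.

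In the exchanged arrangement, dropping the filter on dim probes gave 2 for DMBA in CD109+/+ skin, 0 for DMBA averaged, 9 for genotype after DMBA (8 shared with the 16) and 3 in untreated skin. Normexp gave 4 for DMBA in CD109-/- skin, 7 for the difference of the DMBA effects, 7 for DMBA averaged, and 6 higher against 3 lower in untreated skin, where median centring gave 4 against 0. Leaving out 1 array gave 0 to 6 for DMBA in CD109+/+ skin, 0 to 1 in CD109-/- skin, 0 to 2 for the difference, 0 to 2 for DMBA averaged, 0 to 20 for genotype after DMBA, 1 to 12 in untreated skin and 5 to 20 averaged over treatments. Quantile normalization left 14 of the 16 calls after DMBA. Median centring moved the median of all tested probes after DMBA from 0.07 to -0.26 and kept all 16 calls with 6 more. No member changed direction with scaling in a comparison in which it passed. The cause of these changes was not tested. Signals near background limit Mmp10, Mmp1a, Mmp1b, Mmp24, Mmp28 and Adamts6.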
